A study of Rattus norvegicus with 12 samples.

Results

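The genes that give endothelial cells their identity were read in the left ventricle of rats whose cardiomyocytes overexpress VEGF-B. The set was defined by gene symbol, with earlier results of these data known. It holds 42 genes: 8 of cell junctions and adhesion, 8 of the cell surface and matrix, 3 of coagulation, 3 arterial, 2 venous, 1 of sprouting, 2 lymphatic, 11 transcription factors and 4 adhesion molecules of activated endothelium. Of the 42 genes, 37 had a named probe on the array, 1 probe each, out of 22517 probes read. A probe was tested when its detection p was under 0.05 on at least 6 of the 12 arrays, which 33 of the 37 probes and 9054 of all 22517 probes passed. The array carried no probe named for Pecam1, Heg1, Ptprb, Mmrn2 or Lmo2 in the annotation used here, so these 5 genes have no value. Bmx was detected on 2 VEGF-B TG and 2 WT arrays, and Sox7, Tal1 and Selp on 0 arrays, so these 4 genes were not tested.

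The hearts came from male rats of the outbred HsdBrl:WH Wistar background at 2 months of age. The 6 VEGF-B TG rats carried a VEGF-B transgene under the αMHC promoter, which is active in cardiomyocytes, and the 6 WT rats were littermates without it. RNA of each left ventricle was hybridized to its own Illumina RatRef-12 array, so a rat was 1 replicate. The comparison asks whether transcripts of endothelium differ when cardiomyocytes overexpress VEGF-B, a growth factor that binds VEGF receptor-1 on endothelial cells. The transgene is driven in cardiomyocytes and not in the cells whose genes are described here, and 1 age and 1 sex were examined.

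Endothelial cells line every vessel and hold together through junctions of VE-cadherin, claudin-5 and related adhesion molecules. Their identity is kept by transcription factors of the ETS family, which bind a short GGAA core, together with SOXF, GATA and Kruppel-like factors, and arteries, veins, capillaries and lymphatics add genes of their own. In the heart the capillaries form the bulk of the endothelium and lie next to nearly every cardiomyocyte. In RNA of a whole ventricle, more cells of a type and more RNA per cell cannot be told apart.

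Promoter sequences are given for the genes that were higher in VEGF-B TG hearts with no overlap between the groups, in the order of the smallest p, where the RefSeq promoter table (build GRCr8) held them. It held 19 of the 37 genes with a probe, and 5 of those were of this kind. They are shown because ETS factors bind the GGAA core and because 2 ETS factor genes, Fli1 and Ets1, were among the higher genes. Each sequence is the 250 bases before the annotated transcription start, read 5′ to 3′ along the strand of the gene, with GGAA, or TTCC where the core lies on the opposite strand, in capitals. Emcn lies at chr2:228564289-228564538 on the plus strand, Egfl7 at chr3:29805381-29805630 on the plus strand, Plvap at chr16:18231280-18231529 on the minus strand, Tm4sf1 at chr2:143616177-143616426 on the minus strand and Icam1 at chr8:27829595-27829844 on the plus strand.
Emcn: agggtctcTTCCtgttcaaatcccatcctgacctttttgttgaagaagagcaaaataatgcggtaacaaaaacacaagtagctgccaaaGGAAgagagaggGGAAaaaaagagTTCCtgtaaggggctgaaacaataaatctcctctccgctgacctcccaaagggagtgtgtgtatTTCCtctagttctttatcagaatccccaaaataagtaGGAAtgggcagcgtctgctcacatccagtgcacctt
Egfl7: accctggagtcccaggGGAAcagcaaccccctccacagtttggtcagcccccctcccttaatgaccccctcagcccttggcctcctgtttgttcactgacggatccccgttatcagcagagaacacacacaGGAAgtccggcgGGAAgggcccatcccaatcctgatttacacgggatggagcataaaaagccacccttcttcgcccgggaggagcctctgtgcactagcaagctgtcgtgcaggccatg
Plvap: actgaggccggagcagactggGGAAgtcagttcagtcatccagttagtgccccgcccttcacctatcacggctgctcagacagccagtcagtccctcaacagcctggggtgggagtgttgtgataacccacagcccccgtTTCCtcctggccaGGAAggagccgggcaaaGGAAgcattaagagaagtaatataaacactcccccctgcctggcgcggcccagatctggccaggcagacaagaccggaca
Tm4sf1: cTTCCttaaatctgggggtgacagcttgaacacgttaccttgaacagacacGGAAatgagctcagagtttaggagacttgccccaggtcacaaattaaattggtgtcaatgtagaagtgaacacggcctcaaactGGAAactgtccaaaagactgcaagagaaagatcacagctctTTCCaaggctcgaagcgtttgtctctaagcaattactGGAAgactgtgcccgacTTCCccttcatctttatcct
Icam1: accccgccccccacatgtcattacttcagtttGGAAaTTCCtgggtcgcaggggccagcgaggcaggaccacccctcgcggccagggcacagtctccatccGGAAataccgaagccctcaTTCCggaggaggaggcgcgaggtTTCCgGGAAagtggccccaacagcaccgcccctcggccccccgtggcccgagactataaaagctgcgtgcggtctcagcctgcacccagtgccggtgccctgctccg
Counted on both strands, the GGAA core occurred 6 times in the Emcn promoter, 3 times in Egfl7, 4 times in Plvap, 6 times in Tm4sf1 and 6 times in Icam1, and the median over all 27457 promoters of this length was 3. Members that were not called held as many in places, with 6 in Vcam1, 5 in Procr, 5 in Lyve1 and 4 in Clec14a, and the median over the 12 was 3. At least 1 core was present in 5 of the 5 promoters of higher genes, in 11 of the 12 promoters of genes that were tested and not called, and in 93.2% of all promoters. The promoter of Cldn5 was the one without a core. The longer AACAGGAA, which joins a forkhead and an ETS core and contains the GGAA counted above, occurred 1 time among these genes, on the reverse strand of the Emcn promoter at base -242 counted from the start, and in 2.09% of all promoters. CACCC, a Kruppel-like factor core, occurred in 4 of the 5 promoters of higher genes, in 6 of the 12 uncalled ones and in 49.4% of all promoters. For SOX factors, AACAAT occurred in 1 of the 5, 1 of the 12 and 2825 of all 27457 promoters, and ACAAAG in 0 of the 5, 2 of the 12 and 4383 of all. The GATA word AGATAA occurred in 0 of the 5, 2 of the 12 and 2759 of all promoters. These are matches of letters in a short window, and binding was not measured.

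Endothelial genes were higher in VEGF-B TG hearts for many members and lower for none. The members were chosen with earlier results of these data known. Their shares beside those of all tested probes are therefore a description and not a test. Among the 33 tested probes 15 were higher (45.5%) and 0 were lower at an adjusted p under 0.05, where 21.9% of all 9054 tested probes passed it, 11.6% higher and 10.3% lower. Of the 15, 13 also passed an adjusted p under 0.01, as did 6.2% of all tested probes in this direction. At an unadjusted p under 0.05, 0 of the 33 were lower, against 16.9% of all tested probes. In 13 of the 33 every VEGF-B TG heart lay above every WT heart, as did 5.74% of all tested probes, and in 0 of the 33 every VEGF-B TG heart lay below, as did 5.06% of all. The median log2 difference (VEGF-B TG minus WT) was 0.28 over the 33 members and -0.01 over all tested probes. The median over the members was 0.17 without background correction and 0.17 in the log2 values deposited by the authors. At least a 1.5-fold higher signal was seen for 8 members, against 2.67% of all tested probes. The spread between hearts was 0.21 for the median member and 0.16 for the median probe of the array (pooled SD of log2 signal within groups).

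**Figure D1:**
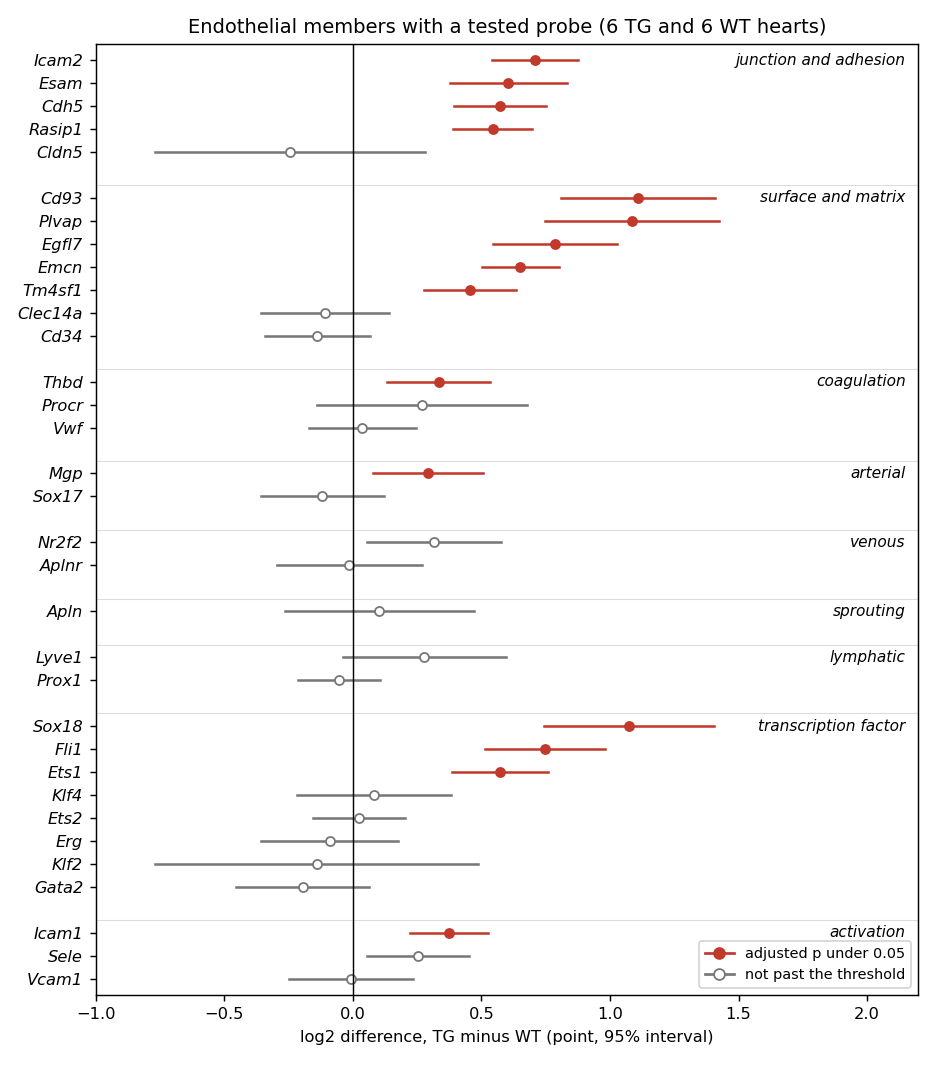
Log2 difference between 6 VEGF-B TG and 6 WT hearts for the 33 tested endothelial members, grouped by role, with the 95% interval as a bar. Filled red points are the 15 members past an adjusted p of 0.05, all on the positive side, and open points the 18 others, whose intervals are widest for Klf2 and Cldn5.

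**Figure D2:**
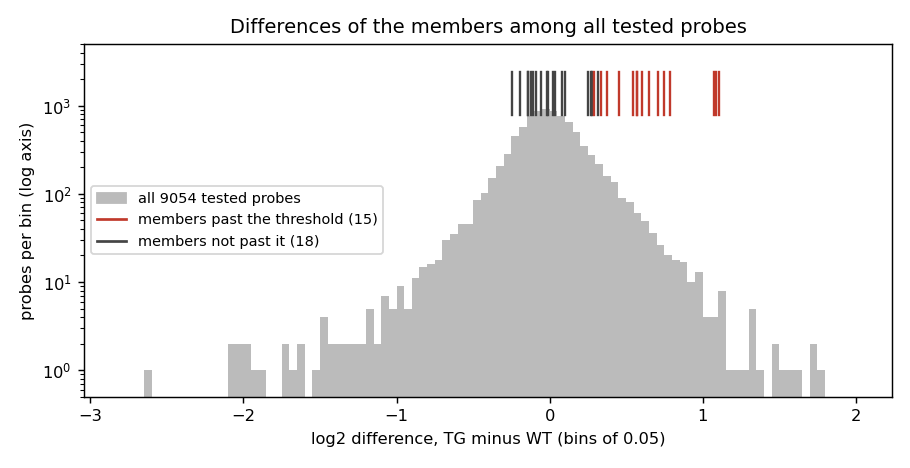
Histogram of the log2 differences (VEGF-B TG minus WT) of all 9054 tested probes in bins of 0.05, with the count on a log axis. Vertical ticks mark the 15 members past the threshold in red and the 18 not past it in grey, and the rightmost ticks are Cd93, Plvap and Sox18.

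Values are background-corrected, quantile-normalized log2 signals of single hearts, and a level of a probe says nothing against the level of another probe. Junction and adhesion genes were higher in 4 of 5 tested members, with a median log2 difference of 0.57 over the 5. Cdh5, which encodes VE-cadherin of the adherens junction, ranged from 6.50 to 6.85 in VEGF-B TG hearts (median 6.54) and from 5.75 to 6.17 in WT hearts (median 6.06). The groups did not overlap, and the difference was 0.57 (SE 0.08, adjusted p = 2.74e-04), or 1.49-fold. This probe was dim, being detected on all 6 VEGF-B TG and 5 WT arrays, and without background correction its difference was 0.26 on the log2 scale. Esam, an adhesion molecule of endothelial tight junctions, ranged from 10.47 to 11.13 in VEGF-B TG hearts (median 10.62) and from 9.93 to 10.22 in WT hearts (median 10.10). All VEGF-B TG hearts were above all WT hearts, with VEGF-B TG replicate 6 highest, and the difference was 0.60 (SE 0.11, adjusted p = 0.00106). Icam2, a constitutive endothelial ligand for leukocyte integrins, lay from 10.93 to 11.33 in VEGF-B TG hearts (median 11.01) and from 10.16 to 10.45 in WT hearts (median 10.37). Its groups were apart by more than the range within WT hearts, and the difference was 0.71 (SE 0.08, adjusted p = 2.55e-05), 1.63-fold. Rasip1, a Ras-interacting protein needed for vessel lumens, ranged from 11.97 to 12.17 in VEGF-B TG hearts (median 12.13) and from 11.46 to 11.80 in WT hearts (median 11.50), again with no overlap, a difference of 0.54 (SE 0.07, adjusted p = 1.22e-04). WT replicate 6 was the WT heart nearest to the VEGF-B TG hearts for Rasip1.

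Cldn5, the claudin of endothelial tight junctions, was the member of this role that was not called. Its signal ran from 9.16 to 10.94 in VEGF-B TG hearts (median 9.90) and from 9.80 to 10.49 in WT hearts (median 10.13). Both the lowest and the highest of the 12 hearts were VEGF-B TG hearts, replicates 1 and 6, and the pooled SD of 0.50 was above that of 99.0% of tested probes. The difference was -0.24 (95% interval -0.77 to 0.28, adjusted p = 0.522), an interval that holds a fall as well as a small rise. Within each heart the signal of Esam minus that of Cldn5 was 0.85 (SE 0.20) higher in VEGF-B TG than in WT hearts, and the groups overlapped. Like the other differences between members below, this pair was chosen after its values were seen, so no test is given for it.

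Surface and matrix genes held the largest differences of the set, with 5 of 7 tested members higher and a median of 0.65. Cd93, a C-type lectin receptor of endothelium and myeloid cells that binds the matrix protein multimerin-2, ranged from 11.27 to 11.86 in VEGF-B TG hearts (median 11.50) and from 9.99 to 10.88 in WT hearts (median 10.48). The lowest VEGF-B TG heart was 0.39 above the highest WT heart, and the difference was 1.11 (SE 0.14, adjusted p = 8.72e-05), 2.16-fold. Plvap, which forms the diaphragms of fenestrae and caveolae, ranged from 7.21 to 7.81 in VEGF-B TG hearts (median 7.58) and from 5.94 to 6.88 in WT hearts (median 6.43). No hearts overlapped and the difference was 1.08 (SE 0.16, adjusted p = 2.72e-04), 2.12-fold. Plvap was also a dim probe, detected on 6 VEGF-B TG and 5 WT arrays, and its difference was 0.55 on the log2 scale without background correction. Its WT hearts were more scattered than its VEGF-B TG hearts (SD 0.37 against 0.24).

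Egfl7, a matrix protein secreted by endothelium, ranged from 9.40 to 9.99 in VEGF-B TG hearts (median 9.72) and from 8.69 to 9.17 in WT hearts (median 8.87), a separation of the groups with a difference of 0.79 (SE 0.11, adjusted p = 2.53e-04). Emcn, the sialomucin endomucin of capillary and venous endothelium, had the smallest p of the 33 members and ranged from 12.01 to 12.19 in VEGF-B TG hearts (median 12.09) and from 11.26 to 11.61 in WT hearts (median 11.42). VEGF-B TG hearts were tightly grouped here (SD 0.07), the nearest WT heart was 0.40 below them, and the difference was 0.65 (SE 0.07, adjusted p = 1.96e-05), 1.57-fold. Tm4sf1, a tetraspanin-like membrane protein of endothelium, ranged from 10.03 to 10.35 in VEGF-B TG hearts (median 10.25) and from 9.51 to 9.92 in WT hearts (median 9.82), which left a gap of 0.11 between the groups and a difference of 0.46 (SE 0.08, adjusted p = 0.00149).

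The remaining surface genes were not called. Clec14a, a lectin receptor of the same family as Cd93 that binds the same matrix protein, ranged from 7.73 to 8.42 in VEGF-B TG hearts (median 8.09) and from 7.91 to 8.34 in WT hearts (median 8.197), and its difference was -0.11 (95% interval -0.36 to 0.14, adjusted p = 0.553). The interval leaves out a rise of the size seen for Cd93. Cd93 minus Clec14a within each heart was 1.22 (SE 0.25) higher in VEGF-B TG hearts, with no overlap between the groups. Cd34, the sialomucin of endothelium and blood progenitors, was detected on 4 VEGF-B TG and 3 WT arrays. It ranged from 5.59 to 6.08 in VEGF-B TG hearts (median 5.91) and from 5.78 to 6.27 in WT hearts (median 6.01), and its difference was -0.14 (95% interval -0.34 to 0.07, adjusted p = 0.33).

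**Figure D3:**
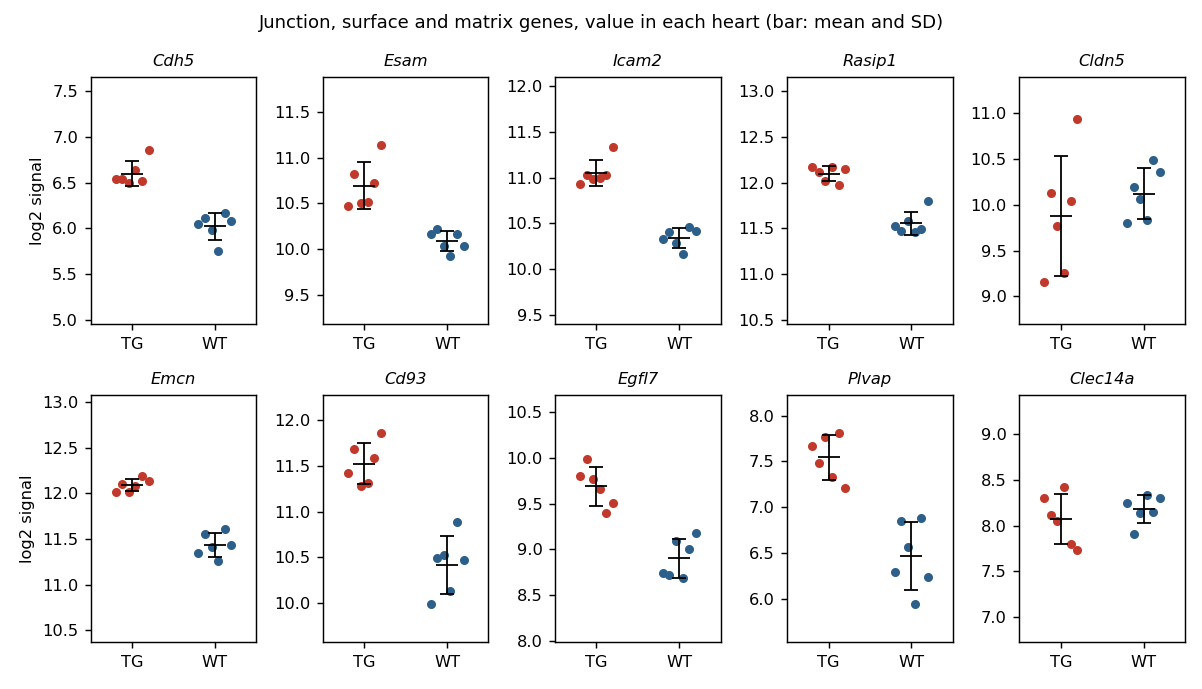
Log2 signal of single hearts for 10 junction, surface and matrix genes, with VEGF-B TG hearts in red on the left, WT hearts in blue on the right, and the mean and SD of 6 hearts as bars. Every panel spans the same number of log2 units. The groups are apart for 8 of the 10 genes and overlap for Cldn5 and Clec14a.

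Of the coagulation genes 1 of 3 was higher, too few probes to set against the 11.6% of all tested probes. Thbd, the thrombin receptor thrombomodulin that turns thrombin toward activation of protein C, ranged from 8.94 to 9.28 in VEGF-B TG hearts (median 9.20) and from 8.51 to 9.10 in WT hearts (median 8.85). The highest WT heart lay inside the VEGF-B TG range, and the difference was 0.33 (SE 0.09, adjusted p = 0.0197), 1.26-fold, which did not pass an adjusted p of 0.01. Procr, the receptor that presents protein C to thrombomodulin, ranged from 7.0 to 7.96 in VEGF-B TG hearts (median 7.09) and from 6.50 to 7.48 in WT hearts (median 7.10). The medians were nearly equal while VEGF-B TG replicates 5 and 6 stood highest, and the difference was 0.27 (95% interval -0.14 to 0.68, adjusted p = 0.345). Vwf, the multimeric protein of Weibel-Palade bodies that platelets also carry, ranged from 9.70 to 10.30 in VEGF-B TG hearts (median 9.99) and from 9.86 to 10.11 in WT hearts (median 9.89), and its difference was 0.04 (95% interval -0.17 to 0.24, adjusted p = 0.831).

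The arterial members did not move together. Mgp, matrix Gla protein, an inhibitor of calcification made by arterial and other vessel wall cells, ranged from 12.73 to 13.27 in VEGF-B TG hearts (median 12.97) and from 12.49 to 12.92 in WT hearts (median 12.64). The groups overlapped and the difference was 0.29 (SE 0.10, adjusted p = 0.0491), which lay at the threshold. It was not called with median scaling (0.24, adjusted p = 0.11), with array weights or with no filter on dim probes, nor when any of 9 of the 12 arrays was left out, namely VEGF-B TG replicate 1, 2, 4 or 6 or WT replicate 1, 2, 3, 5 or 6 (differences of 0.23 to 0.30, adjusted p of 0.0648 to 0.103). Sox17, the SOXF factor of arterial endothelium, ranged from 8.49 to 9.17 in VEGF-B TG hearts (median 9.05) and from 8.90 to 9.26 in WT hearts (median 9.05), with a difference of -0.12 (95% interval -0.36 to 0.12, adjusted p = 0.488). Bmx, a tyrosine kinase of arterial endothelium, was near background in both groups.

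Venous, sprouting and lymphatic members gave 0 calls in 5 tested probes, where 11.6% of all tested probes were higher and 10.3% lower. So few probes do not set these roles apart from all tested probes. Nr2f2, the COUP-TFII factor of venous identity, ranged from 7.16 to 7.93 in VEGF-B TG hearts (median 7.57) and from 7.04 to 7.46 in WT hearts (median 7.25). Its difference was 0.31 (95% interval 0.06 to 0.57, adjusted p = 0.079), and it passed the threshold with median scaling (0.38, adjusted p = 0.0317) and when VEGF-B TG replicate 3 (0.37, adjusted p = 0.0494) or 5 (0.39, adjusted p = 0.0263) was left out. Aplnr, the apelin receptor of venous and sprouting endothelium, ranged from 10.14 to 10.91 in VEGF-B TG hearts (median 10.28) and from 10.10 to 10.57 in WT hearts (median 10.45) and differed by -0.01 (95% interval -0.30 to 0.27, adjusted p = 0.956). Its ligand Apln, made by the tip cells of sprouts, ranged from 7.59 to 8.54 in VEGF-B TG hearts (median 7.70) and from 7.28 to 8.12 in WT hearts (median 7.75), with VEGF-B TG replicate 6 far above the others, and differed by 0.10 (95% interval -0.27 to 0.47, adjusted p = 0.716), or by -0.04 without that heart.

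Lyve1, the hyaluronan receptor of lymphatic endothelium and of some macrophages, ranged from 7.85 to 8.76 in VEGF-B TG hearts (median 8.26) and from 7.61 to 8.35 in WT hearts (median 7.96) and differed by 0.28 (95% interval -0.04 to 0.59, adjusted p = 0.201). Prox1, the factor that sets lymphatic identity and is also made by cardiomyocytes, ranged from 5.99 to 6.34 in VEGF-B TG hearts (median 6.17) and from 6.10 to 6.32 in WT hearts (median 6.20) and differed by -0.05 (95% interval -0.21 to 0.11, adjusted p = 0.659), from a dim probe. The groups overlapped in each of these 5 genes.

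**Figure D4:**
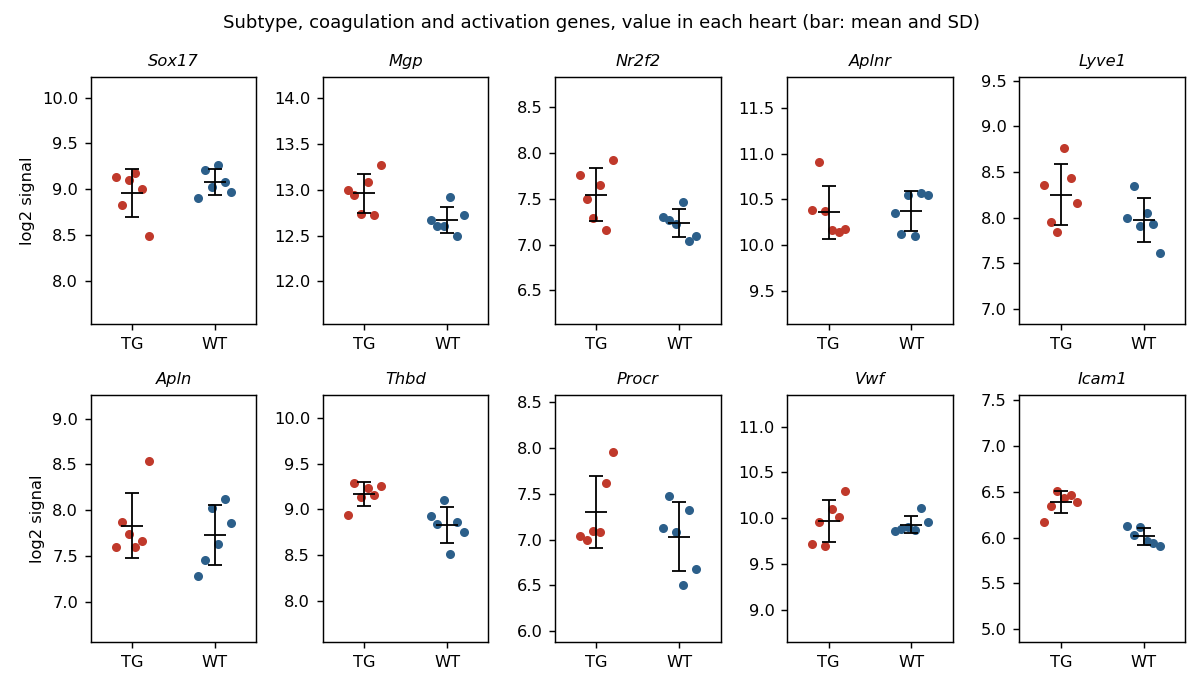
Log2 signal of single hearts for 10 arterial, venous, lymphatic, sprouting, coagulation and activation genes, with VEGF-B TG hearts in red on the left, WT hearts in blue on the right, and mean and SD as bars. Only Icam1 shows no overlap between the groups, and Mgp and Thbd are higher with overlap.

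Among transcription factors some members of a family were called and others were not. Of 8 tested factors 3 were higher, while the median difference over the 8 was 0.05. Sox18, a SOXF factor of endothelium, ranged from 10.13 to 10.68 in VEGF-B TG hearts (median 10.25) and from 8.75 to 9.70 in WT hearts (median 9.28). No hearts overlapped, the gap between the groups was 0.43, and the difference was 1.07 (SE 0.15, adjusted p = 2.54e-04), 2.11-fold. Sox17 of the same family was given above at -0.12 and Sox7 was on 0 arrays detected. Sox18 minus Sox17 within each heart was 1.19 (SE 0.23) higher in VEGF-B TG hearts, with no overlap.

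The ETS factors were read through 4 tested probes. Fli1, an ETS factor of endothelium and blood cells, ranged from 9.34 to 9.95 in VEGF-B TG hearts (median 9.61) and from 8.65 to 9.16 in WT hearts (median 8.83), and its groups were apart with a difference of 0.75 (SE 0.11, adjusted p = 2.75e-04), 1.68-fold. Ets1, an ETS factor of endothelium and lymphocytes, ranged from 9.10 to 9.57 in VEGF-B TG hearts (median 9.26) and from 8.51 to 8.87 in WT hearts (median 8.70), again apart, with a difference of 0.57 (SE 0.09, adjusted p = 3.74e-04). Erg, an ETS factor that maintains endothelial identity, ranged from 5.85 to 6.79 in VEGF-B TG hearts (median 6.16) and from 6.19 to 6.53 in WT hearts (median 6.30). The highest and the lowest of the 12 hearts were both VEGF-B TG hearts, and Erg differed by -0.09 (95% interval -0.36 to 0.18, adjusted p = 0.654), from a dim probe that was detected on all arrays. Ets2, a widely expressed member, ranged from 6.17 to 6.68 in VEGF-B TG hearts (median 6.44) and from 6.33 to 6.44 in WT hearts (median 6.42) and differed by 0.02 (95% interval -0.16 to 0.20, adjusted p = 0.873), from a dim probe as well. Within each heart Fli1 minus Erg was 0.84 (SE 0.20) higher and Ets1 minus Ets2 was 0.55 (SE 0.11) higher in VEGF-B TG hearts. Overlap between the groups was seen for Fli1 minus Erg and not for Ets1 minus Ets2. The probes of Erg and Ets2 were dim and those of Fli1 and Ets1 were not. The part of signal level in these differences was not tested.

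The other factors were not called. Gata2, a GATA factor of endothelium and blood progenitors, ranged from 8.34 to 9.01 in VEGF-B TG hearts (median 8.62) and from 8.66 to 9.07 in WT hearts (median 8.86) and differed by -0.20 (95% interval -0.45 to 0.06, adjusted p = 0.277). Klf2, induced by laminar flow, ranged from 9.12 to 10.79 in VEGF-B TG hearts (median 9.92) and from 9.51 to 10.73 in WT hearts (median 10.03). The 12 hearts were spread over nearly the same range in both groups, the pooled SD of 0.60 was above that of 99.3% of tested probes, and the difference was -0.14 (95% interval -0.77 to 0.49, adjusted p = 0.775). The interval leaves room for a fall as well as for a rise. Klf4, a related flow-responsive factor, ranged from 10.40 to 11.12 in VEGF-B TG hearts (median 10.62) and from 10.32 to 10.85 in WT hearts (median 10.69) and differed by 0.08 (95% interval -0.22 to 0.38, adjusted p = 0.726).

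**Figure D5:**
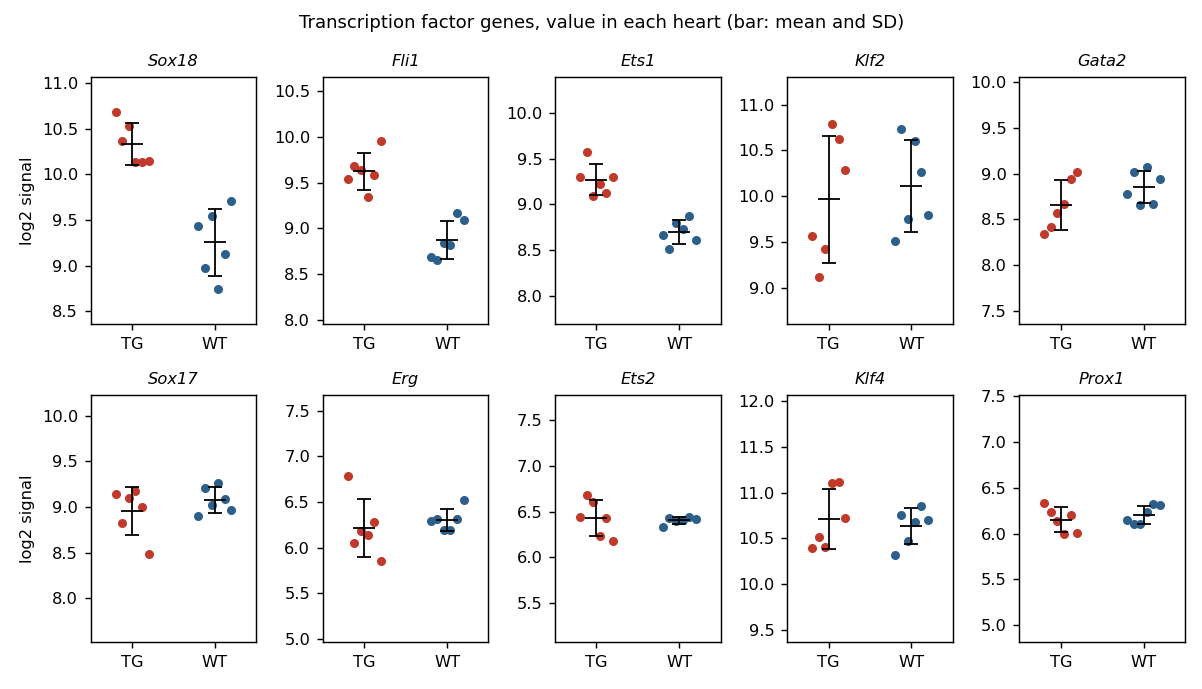
Log2 signal of single hearts for 10 transcription factor genes, with VEGF-B TG hearts in red on the left, WT hearts in blue on the right, and the mean and SD of 6 hearts as bars. The groups are apart for Sox18, Fli1 and Ets1 and overlap for the other 7, with the widest scatter for Klf2.

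Among the adhesion molecules of activated endothelium 1 of 3 tested was higher, again too few to set against the 11.6% of all tested probes. Icam1, a ligand for leukocyte integrins induced by inflammation, ranged from 6.17 to 6.52 in VEGF-B TG hearts (median 6.41) and from 5.90 to 6.13 in WT hearts (median 5.99). The groups did not overlap, but the gap was 0.04, and the difference was 0.37 (SE 0.07, adjusted p = 0.00187), 1.3-fold. Its probe was dim, detected on 6 VEGF-B TG and 4 WT arrays, and gave 0.17 on the log2 scale without background correction. Vcam1, induced by the same stimuli, ranged from 6.50 to 7.10 in VEGF-B TG hearts (median 6.85) and from 6.57 to 7.11 in WT hearts (median 6.89) and differed by -0.01 (95% interval -0.25 to 0.23, adjusted p = 0.973). Icam1 minus Vcam1 within each heart was 0.38 (SE 0.11) higher in VEGF-B TG hearts, with overlap. Sele, or E-selectin, was detected on 6 VEGF-B TG and 2 WT arrays, ranged from 5.97 to 6.41 in VEGF-B TG hearts (median 6.08) and from 5.66 to 6.09 in WT hearts (median 5.92) and differed by 0.25 (95% interval 0.05 to 0.45, adjusted p = 0.0649). It passed the threshold with array weights (adjusted p = 0.0481) and when VEGF-B TG replicate 4 (0.29, adjusted p = 0.0457) or WT replicate 4 (0.29, adjusted p = 0.0491) was left out.

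The same hearts were often the extreme ones among the 15 called members. VEGF-B TG replicate 6 was the highest VEGF-B TG heart for 6 of the 15 and WT replicate 4 the lowest WT heart for 10 of the 15, while WT replicate 5 was the highest WT heart for 7. With any 1 array left out between 14 and 16 members were higher and 0 lower. Replicate 6 also had the most probes detected of the VEGF-B TG arrays (9655), and WT replicate 4 the fewest of the WT arrays (8452). Over all arrays 9235.2 ± 310.2 probes were detected in VEGF-B TG and 8816.8 ± 324.1 in WT hearts (SD, n = 6 each), a difference with an exact permutation p of 0.0476 (2-sided) that exceeded 0.05 when any of 7 arrays was left out, namely VEGF-B TG replicate 2, 3, 5 or 6 or WT replicate 1, 4 or 6 (differences of 334 to 442 probes, p up to 0.0952). At a detection p under 0.01, 7654.8 ± 265.4 probes were detected in VEGF-B TG and 7076.8 ± 280.4 in WT hearts (SD, n = 6 each), with every VEGF-B TG array above every WT array and an exact permutation p of 0.00216, the smallest that 6 against 6 allows. The part of this difference in the results was not tested. Of the 23 members detected at 0.01 on all 12 arrays 12 were higher. Over all probes 1726 of the 6301 so detected were called in either direction. Such a filter does not remove a difference between arrays.

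Further genes of endothelium outside the set were read from lists written with earlier results of these data known. Their counts stand beside shares of 11.6% higher and 10.3% lower over all tested probes. Of 21 tested probes of other pan-endothelial genes 10 were higher and 0 lower, with a median difference of 0.32. Those with the smallest p were Tie1, an orphan receptor of the angiopoietin system (0.65, SE 0.07, adjusted p = 2.53e-05 at 1 of its probes), Ramp2, a partner of the adrenomedullin receptor (0.62, SE 0.07, adjusted p = 3.49e-05), and Nostrin, which binds endothelial nitric oxide synthase (1.06, SE 0.12, adjusted p = 4.72e-05). Other arterial genes had 9 of 16 probes higher and 2 lower, with a median of 0.44. Cxcr4, a chemokine receptor (1.39, SE 0.17, adjusted p = 5.43e-05), and Unc5b, a netrin receptor of arterial endothelium (1.02, SE 0.16, adjusted p = 3.56e-04), were among the higher, and the gap junction gene Gja5 (-0.32, SE 0.10, adjusted p = 0.039) and the Notch target Hey2 (-0.39, SE 0.10, adjusted p = 0.0129) were the lower, the last pair being named after their values were seen.

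Other sprouting genes were higher for 4 of 8 probes with 0 lower and a median of 0.90, among them the basement membrane gene Col4a1 (0.98, SE 0.12, adjusted p = 7.14e-05) and the Tie2 ligand Angpt2 (0.97, SE 0.28, adjusted p = 0.0241). Capillary genes were higher for 4 of 11 probes and lower for 1, the glycerol channel Aqp7 (-0.96, SE 0.18, adjusted p = 0.00185). Venous and lymphatic genes gave 0 calls in 4 probes, and endocardial genes 0 in 3, too few to differ from the shares over all tested probes. The endocardial gene Hand2, named after its values were seen, was detected on 0 VEGF-B TG and 5 WT arrays and was not tested. Every VEGF-B TG heart lay below every WT heart for Hand2 (means 5.63 and 6.25). Other transcription factors of endothelium were higher for 6 of 8 probes, with the bHLH factors Tcf4 (0.45, SE 0.07, adjusted p = 4.92e-04) and Lyl1 (0.54, SE 0.12, adjusted p = 0.00458) smallest in p, and lower for 1, Gata6 (-0.33, SE 0.09, adjusted p = 0.0185).

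Markers of other cells moved with the groups as well, and their part in the differences of the endothelial members was not tested. Over all tested probes 11.6% were higher and 10.3% lower. Summed levels here are the background-corrected, quantile-normalized signals of the tested probes of a list, added within a heart on the linear scale. Pericyte genes were higher for 8 of 8 probes, with sums of 6347 to 7686 in VEGF-B TG hearts and 4633 to 5252 in WT hearts. Of these Rgs5 was detected on 6 VEGF-B TG arrays and 1 WT array, so it met the filter through the group in which it was higher. Macrophage and myeloid genes were higher for 8 of 9 probes and lower for 1. Their sums were 3116 to 4905 in VEGF-B TG hearts and 2820 to 3353 in WT hearts. The lower gene was C1qc (-2.04, SE 0.19, adjusted p = 4.55e-06), while C1qa (0.52) and C1qb (0.60) were among the higher. The macrophage marker Adgre1 was detected on 0 arrays and Tyrobp, counted as higher, on 6 VEGF-B TG and 2 WT arrays. These macrophage and myeloid values stand beside those of Cd93, Icam2, Thbd, Icam1, Lyve1, Fli1 and Ets1, which leukocytes can also express. Mast cell genes were higher for 3 of 5 probes, with sums of 417 to 869 in VEGF-B TG hearts and 378 to 492 in WT hearts, and Kit, counted as higher, passed the filter in the same way as Rgs5 (6 VEGF-B TG arrays and 1 WT array). Platelet genes were higher for 1 of 2 probes, with sums of 748 to 1097 in VEGF-B TG hearts and 688 to 838 in WT hearts, and Gp5, Gp9, Ppbp and Treml1 were detected on 0 arrays, and these values stand beside Vwf and Selp, which platelets also carry.

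Lymphocyte genes gave 0 calls in 1 tested probe, with signals of 126 to 203 in VEGF-B TG hearts and 109 to 226 in WT hearts. Cd3d, Cd3g, Cd8a, Il2rg and Ms4a1 were detected on 0 arrays. Lck was detected on 4 VEGF-B TG and 0 WT arrays and was not tested. Every VEGF-B TG heart lay above every WT heart for Lck (means 5.96 and 5.65). Erythroid genes gave 0 calls in 5 probes. Cell cycle genes were higher for 8 of 10 probes, with sums of 3873 to 4801 in VEGF-B TG hearts and 2789 to 3550 in WT hearts, and Kif11, counted as higher, was detected on 5 VEGF-B TG arrays and 1 WT array. Vascular smooth muscle genes were lower for 2 of 4 probes, Tagln and Synpo2, and higher for 0. Des and Synpo2 are also made by cardiomyocytes, so this list does not read smooth muscle alone. Sums were 26665 to 30574.5 in VEGF-B TG hearts and 28963 to 31033 in WT hearts. Most of each sum came from Des, which was not called (mean log2 signal 14.47 in VEGF-B TG and 14.58 in WT hearts). Cnn1, Lmod1 and Mylk were detected on 0 arrays, and Acta2 and Myh11 had no named probe. Fibroblast genes were higher for 1 and lower for 1 of 14 probes, where 11.6% and 10.3% of all tested probes were. Cardiomyocyte genes, which define the labelled tissue, were represented by Myh6, Tnnt2 and Tnni3 on all 12 arrays and were lower for 2 and higher for 0 of 15 probes, with sums of 217775 to 230562 in VEGF-B TG hearts and 209074 to 227387 in WT hearts. The summed level of the 33 tested endothelial members was 34409 to 43162 in VEGF-B TG hearts and 26528 to 29714 in WT hearts. These ranges did not overlap. Bright probes weigh most in this sum, and the brightest, Mgp, Rasip1 and Emcn, were among the called members, so it repeats those calls in part.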

How the data were processed

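RNA from the left ventricle was measured on Illumina RatRef-12 arrays, 1 for each of the 6 VEGF-B TG and 6 WT hearts, and the sample titles gave the groups and replicate numbers. The authors deposited bead intensity values from GenomeStudio without normalization or background subtraction, each with a detection p-value against the negative control beads. They also deposited log2 values, quantile normalized in Chipster (neither tool's version is given in the sources used here), which differed by at most 0.005 from log2 quantile values computed here from the intensities, so no background correction had been made to them. Differences are on the log2 scale.

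Here the deposited intensities were background corrected with neqc of limma 3.58.1 in R 4.3.3 (background from the detection p-values, offset of 16), quantile normalized and log2 transformed. Without this correction, differences of dim probes are smaller. Every probe detected at p under 0.05 on 6 or more arrays was fitted with lmFit and eBayes of limma on group alone, and p-values were Benjamini-Hochberg adjusted over all 9054 of them (threshold 0.05). Single values per array were compared with 2-sided exact permutation tests, for which 0.00216 is the smallest p possible with 6 against 6. Probes were named from the platform annotation, in which 13787 had 1 symbol, 0 several and 8730 none, and 13747 symbols were updated through the gene number. Promoters came from RefSeq (GRCr8), matched by gene number and symbol. The number of arrays limits the precision, and littermates may share variation that the model treats as independent.

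The members and all gene lists were chosen with earlier results of these data known. Every tested member is named, and of other lists at most 4 genes with the smallest p past the threshold, unless stated. Alternatives were no background correction, normexp with an offset of 50, the deposited log2 table, median scaling, cyclic loess, no filter and a strict filter on dim probes (detected at 0.01 on all 12 arrays), eBayes with trend and robust options, a replicate block, array weights, an adjusted p of 0.01 and leaving out each array. The fit was tested on simulated data. Same-numbered hearts of both groups correlated between -0.14 and 0.23 in their deviations from the group means. The WT heart that correlated best had the same number for VEGF-B TG replicates 3, 4 and 5 and another for 1, 2 and 6. These values do not settle whether the numbers pair the hearts. The main fit did not pair them, and the replicate block was an alternative. Figures were drawn with matplotlib 3.10.9.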

Additional observations from a re-analysis of the deposited data

Results flagged for a closer look

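Among the 66 groups of 6 hearts checked for the 33 tested members, 6 held a heart set far from the other 5, measured by its gap to the nearest heart over the whole range, and chance gives about 1 in 20. Icam2 was highest in VEGF-B TG replicate 6 (11.33, next 11.03), and without that heart its log2 difference was 0.65 (limma, adjusted p = 2.46e-05). Rasip1 was highest in WT replicate 6 (11.80, next 11.58), and without it the difference was 0.59 (adjusted p = 4.23e-05). Neither call depends on the heart set apart. The other 4 members were not called with or without the heart. Apln was highest in VEGF-B TG replicate 6 (8.54, next 7.87), and its difference was -0.04 without it. Aplnr was highest in VEGF-B TG replicate 2 (10.91, next 10.39), and its difference was -0.12 without it. Cd34 was lowest in VEGF-B TG replicate 4 (5.59, next 5.90), and Erg was highest among WT hearts in replicate 6 (6.53, next 6.32).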

How the results depend on the processing

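The count of higher members was between 12 and 16 and that of lower members 0 under every alternative run, with 12 of 23 tested under the strict filter, 14 of 37 with no filter and 13 at an adjusted p of 0.01. Over all tested probes 1981 were called, and 1036 at an adjusted p of 0.01. Leaving out 1 array gave 14 to 16 higher members. With the replicate block 15 members were higher and 1928 probes were called, and other pan-endothelial probes numbered 11 higher, against 10 without it. The same-numbered hearts correlated between -0.14 and 0.23, and whether they shared more than a number was not tested. Mgp lost its call under median scaling, no filter and array weights and with any of 9 arrays left out, and both Mgp and Thbd did at an adjusted p of 0.01. Vcam1, which was not called, changed sign to 0.0499 with median scaling, 0.00256 with cyclic loess and 0.0176 with array weights. With 1 array left out the log2 differences of uncalled members that changed sign ran from -0.0682 to 0.0667 for Vcam1, -4.22e-04 to 0.144 for Klf4, -0.0312 to 0.0893 for Vwf, -0.0257 to 0.0750 for Ets2, -0.0380 to 0.181 for Apln, -0.124 to 0.0294 for Aplnr and -0.305 to 0.0286 for Klf2, and the cause was not tested. The difference in detected probes per array was 418 and ran from 334 to 505 with 1 array left out, an alternative chosen after seeing the data. Each member had 1 probe, so averaging the probes of a gene gave no other value. Dim probes limit Cdh5, Plvap, Icam1, Cd34, Sele, Erg, Ets2, Prox1, Vcam1 and Procr, whose detection p exceeded 0.01 on at least 1 array.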
